A study of Mus musculus with 18 samples.

Results

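The genes described here encode the nuclear subunits of the respiratory chain and of ATP synthase in mouse brown and white fat. Members were chosen by gene symbol: Nduf genes of series a, b, c, s and v (complex I), Sdha to Sdhd (complex II), Uqcr genes and Cyc1 (complex III), Cox5, Cox6c, Cox7b and Cox7c genes (complex IV) and Atp5 genes (complex V, ATP synthase). Assembly factors and the Cox4i, Cox6a, Cox6b, Cox7a and Cox8 isoforms of complex IV were left out. Cox7b2 matches the choice by its symbol and was kept. A gene counted only where a probe set names it alone, and the probe set with the highest mean intensity stood for it. This gave 71 genes of the 18193 genes that such a probe set names, with 36 in complex I, 4 in complex II, 9 in complex III, 5 in complex IV and 17 in complex V. All 71 were tested, with no filter on dim probe sets.

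Complexes I and II take electrons from NADH and from succinate and pass them to ubiquinone, complex III passes them on to cytochrome c, and complex IV passes them to oxygen. Complexes I, III and IV pump protons out of the mitochondrial matrix, and complex V makes ATP as the protons return. Brown adipocytes are packed with mitochondria, and their uncoupling protein Ucp1 lets protons return without ATP being made, and brown fat is known for much respiratory chain and little ATP synthase.

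RNA came from interscapular brown adipose tissue (BAT), subcutaneous white adipose tissue (sWAT) and mesenteric white adipose tissue (mWAT) of female Sv129 mice. The mice were 10 weeks old and had been kept at 28 or 6°C for 10 days. Each of the 6 groups had 3 Affymetrix arrays, 18 in all, stated by the study to be biological replicates, and the labels do not say which arrays came from the same mouse. The groups were taken from the array titles, and in 17 arrays the tissue or the temperature listed among the other characteristics contradicts the title.

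Ucp1 was at 13.995 to 14.40 log2 intensity on the 6 BAT arrays, and Zic1, a gene of classical brown fat, was at 9.67 to 9.93 there and at no more than 3.74 elsewhere. Upk3b, a gene of the mesothelium that lines visceral fat, was at 11.82 to 12.75 on the mWAT arrays and at no more than 7.14 elsewhere. The adipocyte gene Adipoq was at 13.50 to 13.85 on all arrays. Whole depots were dissected, and other cells differed between arrays. The mean of 17 skeletal muscle genes ran from 7.16 to 12.65 on the BAT arrays, from 6.04 to 11.87 on the sWAT arrays and from 6.01 to 7.25 on the mWAT arrays, and the mean of 10 lymphocyte genes was 7.12 and 6.73 on mWAT array 3 at 28 and at 6°C against 11.47 to 11.77 on the other mWAT arrays. The mean of 8 pancreas genes was 14.10 on mWAT array 2 at 6°C, 10.13 on mWAT array 1 at 28°C and 10.67 on BAT array 3 at 6°C, against 4.82 to 7.20 on the other arrays, and its part in the cold comparisons was not tested.

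In every complex BAT had the highest mean of the depots. Averaged over the genes of complex I, the log2 intensity was 13.02 to 13.07 on the BAT arrays at 28°C and 12.10 to 12.29 on the sWAT arrays at 28°C. It was 12.53 to 12.61 on the sWAT arrays at 6°C. In each of the 5 complexes the sWAT arrays of cold mice were all above those of mice at 28°C and all below the BAT arrays. The mWAT arrays overlapped between temperatures in every complex, and mWAT array 3 had the highest mean of its group at both temperatures in each of the 5.

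**Figure D1:**
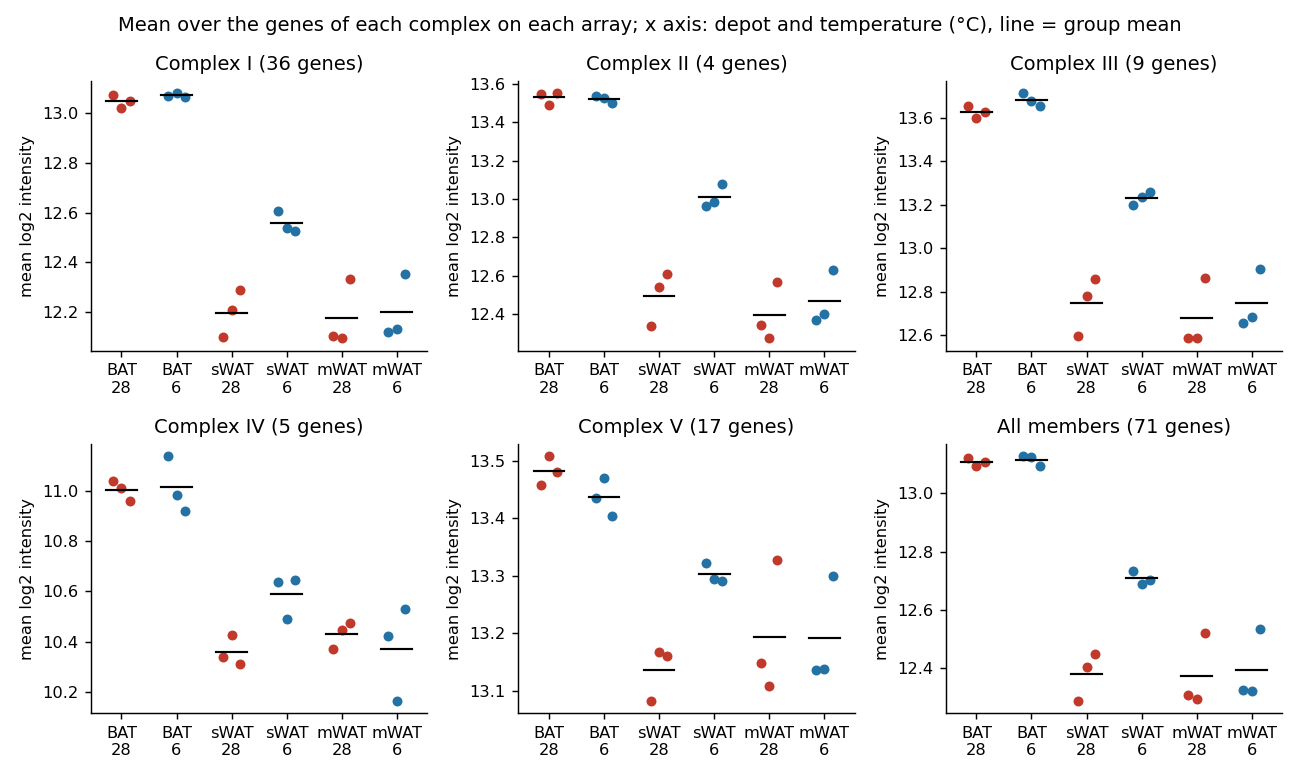
Mean log2 intensity over the genes of each complex, and over all 71, on each array (points), with group means (lines), by depot and temperature. The sWAT arrays at 6°C (blue) sit between those at 28°C (red) and the BAT arrays in every panel, and levels may be compared within a panel only, since each averages other probe sets.

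At 28°C, 59 of the 71 genes were higher in BAT than in sWAT and 1 was lower, by limma with an adjusted p under 0.01. Over all 45037 probe sets 13.2% were higher and 9.66% lower. The median log2 difference was 0.75 in complex I, 1.09 in complex II, 0.80 in complex III, 0.71 in complex IV and 0.49 in complex V, beside 0.11 over all probe sets. In bulk tissue more cells of a type and more RNA per cell cannot be told apart. The p-values rest on the spread between 3 arrays a group. The mean of 9 mammary epithelium genes was 11.10 to 12.34 on the sWAT arrays at 28°C and 4.57 to 7.73 on the BAT arrays, and with it as a covariate no gene passed, while the medians of complexes I to V were 0.83, 1.32, 0.94, 0.57 and 0.44. The median SE of complex I was 0.31 in that fit and 0.11 without the covariate, and the depots and this content cannot be told apart in it. Between BAT and mWAT 58 genes still passed with the covariate.

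In complex I, 34 of 36 genes passed, all higher in BAT. Ndufs1, the large iron-sulfur subunit of the NADH-oxidizing arm, was at 13.33, 13.19 and 13.28 on the BAT arrays and at 11.82, 11.99 and 11.86 on the sWAT arrays. Ndufa10, an accessory subunit of the membrane arm, was at 13.49, 13.40 and 13.49 in BAT and at 11.85, 12.18 and 12.28 in sWAT. In both genes all BAT arrays were high and all sWAT arrays low, with no overlap. Ndufs1 was 2.60-fold higher (log2 difference 1.38 ± 0.14 SE, adjusted p = 3.2e-06) and Ndufa10 2.56-fold higher (1.36 ± 0.12, adjusted p = 1.48e-06). Ndufb2 and Ndufb4, accessory subunits of the membrane arm, had differences of 1.25 ± 0.17 (adjusted p = 6.17e-05) and 1.49 ± 0.18 (adjusted p = 2.1e-05), although the probe set of Ndufb4 had a mean of only 5.65, under the median of every array. By the arms of the complex, the median difference was 0.998 over 7 genes placed in the NADH-oxidizing module, 0.72 over 7 of the ubiquinone-binding module and 0.76 over 19 of the proton-pumping module. Ndufv3 (0.28 ± 0.09) and Ndufa4l2 (0.65 ± 0.23) did not pass.

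Complex II, succinate dehydrogenase, is the complex without a mitochondrially encoded subunit, and all 4 of its genes passed. The flavoprotein Sdha was at 13.76, 13.63 and 13.76 in BAT and at 12.85, 13.05 and 13.14 in sWAT. The iron-sulfur subunit Sdhb was at 13.75, 13.70 and 13.77 in BAT and at 12.43, 12.60 and 12.67 in sWAT. The BAT arrays of both lay close together and above the sWAT arrays. Sdha was 1.63-fold higher (0.71 ± 0.11, adjusted p = 0.000176) and Sdhb 2.25-fold higher (1.17 ± 0.12, adjusted p = 3.21e-06). The membrane anchors Sdhc and Sdhd were higher by 1.01 ± 0.12 (adjusted p = 2.22e-05) and 1.23 ± 0.12 (adjusted p = 3.56e-06).

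In complex III, 8 of 9 genes passed. Uqcrc1, a core subunit, was at 13.59, 13.52 and 13.65 in BAT and at 11.89, 12.11 and 12.18 in sWAT. Cyc1, the cytochrome c1 that hands electrons to cytochrome c, was at 13.28, 13.21 and 13.32 in BAT and at 11.54, 11.90 and 11.89 in sWAT. The groups were again apart by more than 1 log2 unit in both genes. The differences were 1.52 ± 0.13 for Uqcrc1 (2.88-fold, adjusted p = 7.8e-07), the largest of the 71 genes, and 1.496 ± 0.16 for Cyc1 (2.82-fold, adjusted p = 5.76e-06). The small subunits Uqcr11 and Uqcrq were higher by 1.02 ± 0.14 and 0.90 ± 0.13 (adjusted p = 5.18e-05 and 7.61e-05), and Uqcrb (0.42 ± 0.12, adjusted p = 0.0138) did not pass.

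In complex IV, 3 of 5 genes passed. Cox5a was at 13.86, 13.78 and 13.83 in BAT and at 13.004, 13.14 and 13.19 in sWAT, with no overlap, a difference of 0.71 ± 0.10 (1.64-fold, adjusted p = 6.21e-05). Cox6c was higher by 0.75 ± 0.11 (adjusted p = 7.63e-05) and Cox5b by 0.49 ± 0.10 (adjusted p = 0.00106). Cox7c (0.81 ± 0.30) and Cox7b2 (0.45 ± 0.28) did not pass, and the probe set of Cox7b2, a paralog of Cox7b, had a mean of 3.16, which is under every array median.

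In complex V, 10 of 17 genes were higher in BAT, 1 was lower and 6 did not pass. The catalytic beta subunit Atp5b was at 13.97, 13.98 and 13.97 in BAT and at 13.48, 13.51 and 13.52 in sWAT. The groups did not overlap, with a difference of 0.47 ± 0.10 (1.38-fold, adjusted p = 0.00149). The largest differences were those of Atp5md (0.85 ± 0.11, adjusted p = 3.13e-05), Atp5l (0.81 ± 0.12, adjusted p = 8.18e-05) and Atp5e (0.64 ± 0.10, adjusted p = 0.00012). The 5 genes of the catalytic F1 head had a median of 0.47 and the other 12 of 0.50. The gene that was lower in BAT was Atp5g1, which encodes the c subunit of the proton-driven ring and has 2 paralogs.

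**Figure D2:**
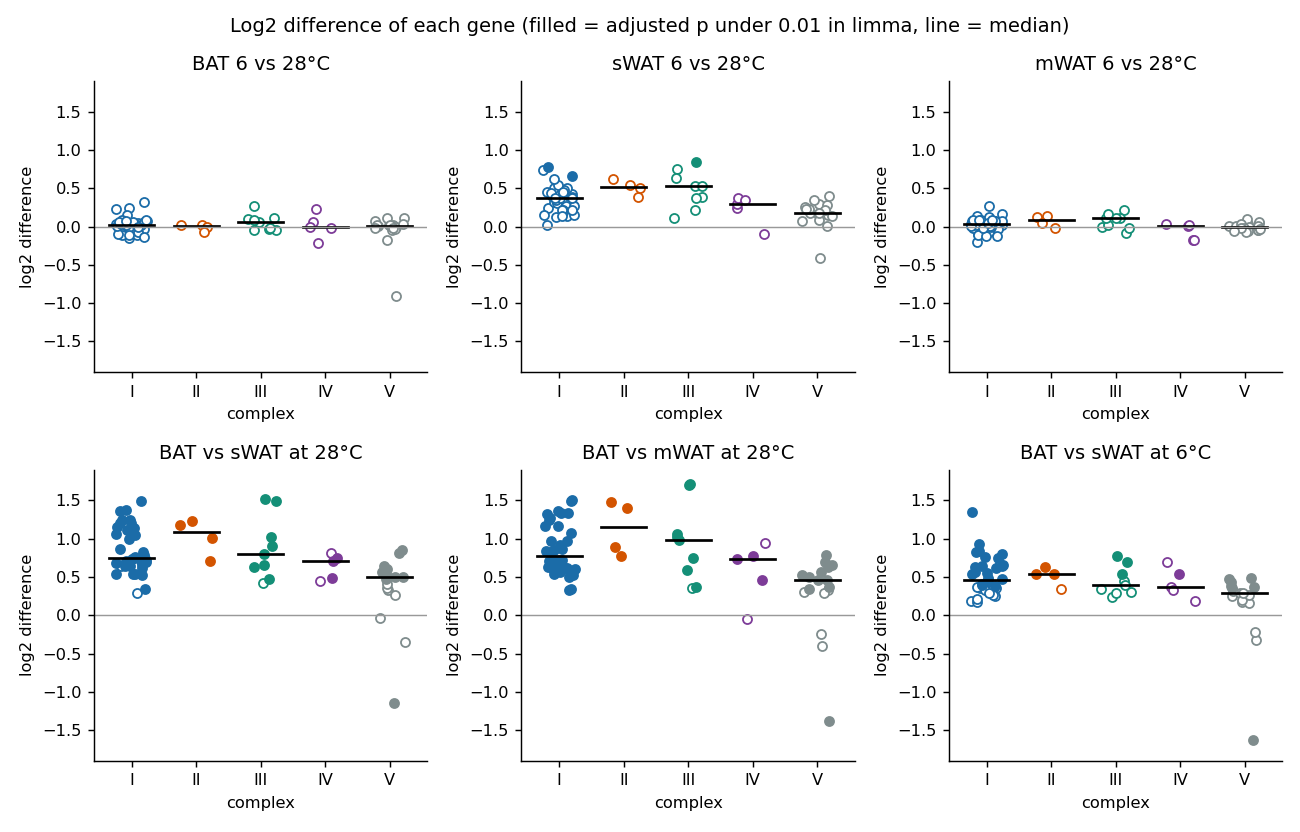
Log2 difference of each gene by complex in 6 comparisons, with filled points for an adjusted p under 0.01 and a line at the median. Complex V has the lowest median in BAT vs sWAT at 28°C (0.49) and in sWAT at 6 vs 28°C (0.18), and Atp5g1 is the point at -1.14, -1.38 and -1.63 in the lower panels.

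Against mWAT at 28°C, a comparison that uses the same BAT arrays, 62 genes were higher in BAT and 1 was lower, with 15.8% and 11.4% over all probe sets. The medians were 0.78, 1.15, 0.98, 0.73 and 0.46 for complexes I to V. All 36 genes of complex I and all 4 of complex II passed. Uqcrc1 (1.71 ± 0.13, adjusted p = 1.78e-07) and Cyc1 (1.70 ± 0.16, adjusted p = 1.17e-06) had the largest differences, followed by Ndufs1 (1.501 ± 0.14, adjusted p = 9.44e-07), Ndufa10 (1.49 ± 0.12, adjusted p = 4.01e-07), Sdhd (1.47 ± 0.12, adjusted p = 4.56e-07) and Sdhb (1.40 ± 0.12, adjusted p = 4.24e-07). Without mWAT array 3 of both temperatures, left out after the data were seen, the difference of Uqcrc1 was 1.84. Sdhc was higher by 0.90 ± 0.12 and Sdha by 0.77 ± 0.11.

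Among the other genes of complexes I and III, Ndufa6, an accessory subunit of complex I, was higher in BAT by 1.36 ± 0.11 (adjusted p = 4.5e-07), the Rieske iron-sulfur protein Uqcrfs1 of complex III by 1.02 ± 0.13 (adjusted p = 2.26e-05) and Uqcr11 by 1.06 ± 0.14 (adjusted p = 2.71e-05). Ndufa4l2, a paralog of Ndufa4 that is placed in complex I by its name only, was at 9.50, 9.40 and 9.63 in BAT, at 8.59, 8.70 and 9.29 in sWAT and at 7.78, 8.19 and 8.55 in mWAT. It was highest in BAT and lowest in mWAT, with a difference of 1.34 ± 0.23 from mWAT (adjusted p = 0.000256). Ndufa4, now known as a subunit of complex IV, was higher in BAT by 0.92 ± 0.13 (adjusted p = 7.03e-05), and Ndufab1, the mitochondrial acyl carrier protein, by 0.84 ± 0.11 (adjusted p = 2.91e-05). Cox5a, Cox6c and Cox5b of complex IV were higher by 0.78 ± 0.10, 0.73 ± 0.11 and 0.46 ± 0.10, and Atp5l, Atp5md and Atp5d of complex V by 0.78 ± 0.12, 0.70 ± 0.11 and 0.65 ± 0.09.

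The white depots were close to each other at 28°C. None of the 71 genes passed between sWAT and mWAT, where 5.84% of all probe sets did, and 1 had an unadjusted p under 0.05 in limma, beside 20.9% of all probe sets. That gene was Ndufa4l2, higher in sWAT by 0.69 ± 0.23 (adjusted p = 0.0715). The medians of the complexes lay between -0.03 and 0.14. The lowest p in complex II was that of Sdhd (0.24 ± 0.12), in complex III that of Uqcrfs1 (0.22 ± 0.13), in complex IV that of Cox7b2 (-0.49 ± 0.28) and in complex V that of Atp5j (-0.21 ± 0.12).

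In sWAT, 69 of the 71 genes had a higher mean at 6 than at 28°C, and 3 passed the test, Uqcrc1, Ndufa10 and Ndufv1. Over all probe sets 0.464% rose. The arrays at 6°C all lay above those at 28°C in 57 of the 71 genes, beside 11.1% of all probe sets. With an adjusted p under 0.05 the number was 10, beside 1.54% of all probe sets, and with an unadjusted p under 0.05 it was 51, beside 12.3%. Genes of brown adipocytes rose on the same arrays, with 4 of 6 past the threshold (Ucp1, Cidea, Elovl3 and Ppara) and a median of 2.40. Ucp1 was at 10.39, 9.52 and 10.55 at 28°C and at 13.77, 13.68 and 13.95 at 6°C. The medians were 0.37 in complex I, 0.52 in complex II, 0.52 in complex III, 0.30 in complex IV and 0.18 in complex V, beside -0.01 over all probe sets.

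Uqcrc1 was at 11.89, 12.11 and 12.18 on the sWAT arrays at 28°C and at 12.89, 12.85 and 12.98 at 6°C. Ndufa10 was at 11.85, 12.18 and 12.28 at 28°C and at 12.94, 12.87 and 12.82 at 6°C. Ndufv1, the flavin subunit that binds NADH, was at 12.79, 12.94 and 12.99 at 28°C and at 13.64, 13.55 and 13.53 at 6°C. In all 3 genes array 1 was the lowest at 28°C and the temperatures did not overlap. The rises were 1.80-fold (0.85 ± 0.13, adjusted p = 0.0034), 1.71-fold (0.77 ± 0.12, adjusted p = 0.00484) and 1.59-fold (0.67 ± 0.11, adjusted p = 0.00544). Leaving out any 1 of sWAT arrays 1, 2 and 3 at 6°C or of sWAT arrays 1 and 2 at 28°C ended all 3 calls, and that of Ndufv1 ended also without any 1 of the 6 BAT arrays, with differences of 0.76 to 0.91 for Uqcrc1, 0.65 to 0.86 for Ndufa10 and 0.61 to 0.71 for Ndufv1. The means of the skeletal muscle genes were 9.88, 11.87 and 7.36 on these arrays at 28°C and 6.04, 11.02 and 6.97 at 6°C. With that mean as a covariate the differences of Uqcrc1, Ndufa10 and Ndufv1 were 0.82, 0.75 and 0.64, and none of the 71 genes passed. The mammary genes were at 11.10, 12.34 and 11.63 at 28°C and at 10.45 to 10.59 at 6°C, and none passed with that covariate either, nor in a fit of the sWAT arrays alone.

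Most of the other genes had higher means at 6°C that did not pass. In complex I, Ndufs1 had a difference of 0.74 ± 0.14 (adjusted p = 0.0132) and Ndufs4 of 0.62 ± 0.12 (adjusted p = 0.0201). In complex II, Sdhd was at 11.86, 12.08 and 12.20 at 28°C and at 12.60, 12.65 and 12.76 at 6°C. Its difference was 0.62 ± 0.12 (adjusted p = 0.0208), beside 0.54 ± 0.12 for Sdhb, 0.50 ± 0.12 for Sdhc and 0.39 ± 0.11 for Sdha. In complex III, Cyc1 was at 11.54, 11.90 and 11.89 at 28°C and at 12.53, 12.55 and 12.49 at 6°C. It differed by 0.75 ± 0.16 (adjusted p = 0.0278). The groups of each of these genes were apart.

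In complexes IV and V the cold differences in sWAT had smaller medians and no gene passed, while the limma p before adjustment was under 0.05 in 3 of the 5 genes and in 8 of the 17, beside 12.3% of all probe sets. Cox6c had the lowest p of complex IV (0.37 ± 0.11, adjusted p = 0.114) and Atp5md that of complex V (0.40 ± 0.11, adjusted p = 0.0941). Atp5b differed by 0.29 ± 0.10 and Cox5b by 0.30 ± 0.10. The 2 genes with a lower mean at 6°C were Cox7c (-0.10 ± 0.30) and Atp5g1 (-0.41 ± 0.25).

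**Figure D3:**
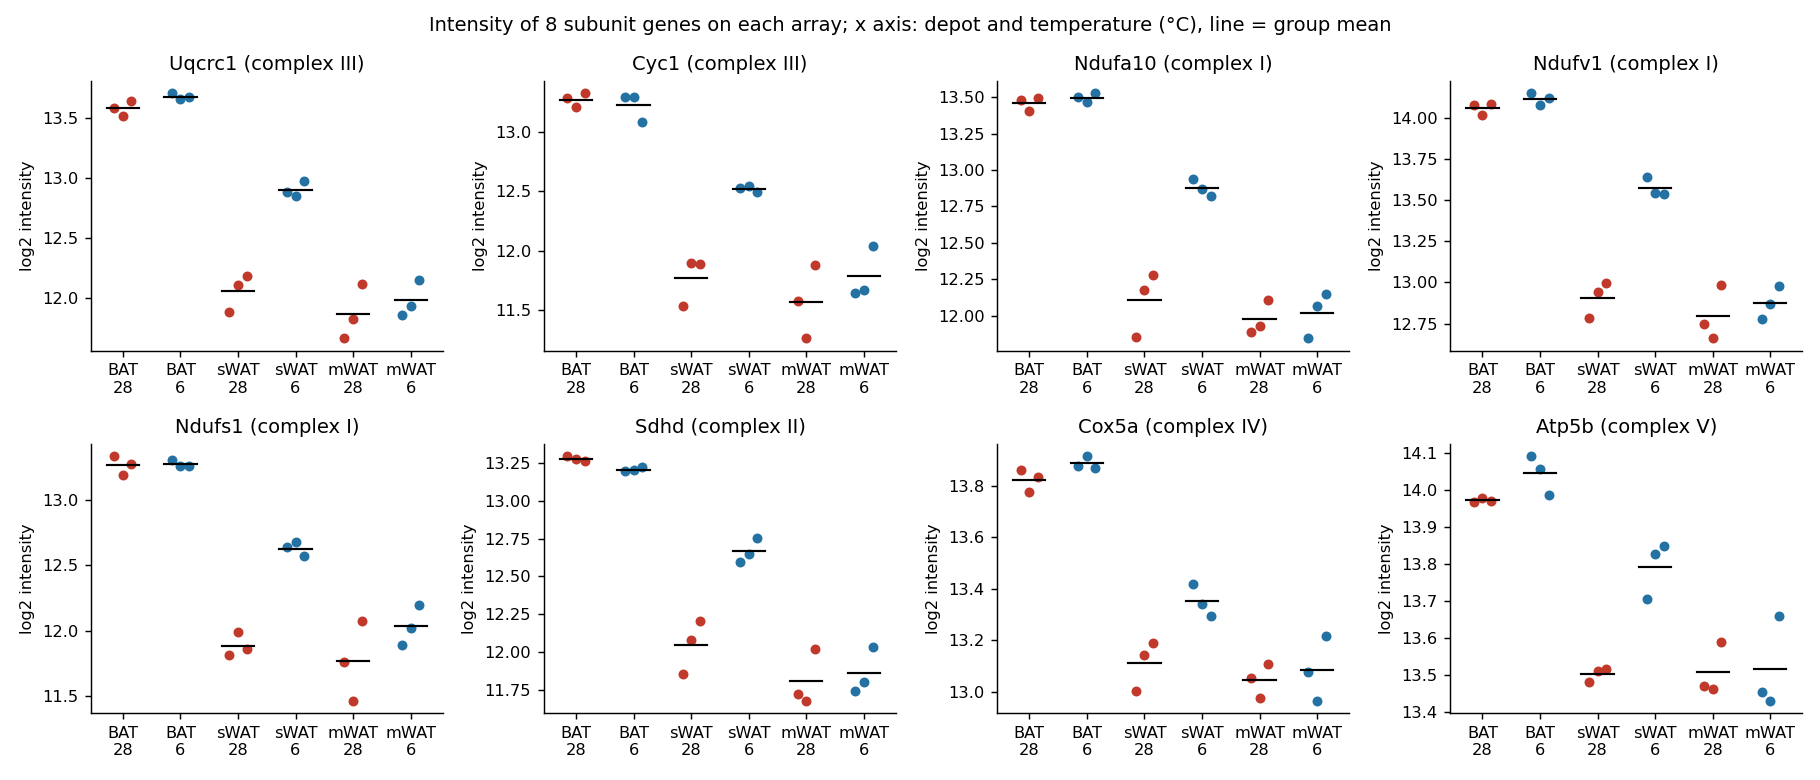
Log2 intensity of 8 subunit genes on each array (points) with group means (lines), by depot and temperature. In Uqcrc1, Ndufa10 and Ndufv1 the sWAT arrays at 6°C lie above those at 28°C and below the BAT arrays, and the mWAT arrays at 6 and 28°C overlap.

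In BAT no gene passed between 6 and 28°C, where 5.28% of all probe sets did, and 3 had an unadjusted p under 0.05 in limma, beside 26.3% of all probe sets. They were Atp5g1, Ndufs4 and Uqcrq. The arrays did not overlap between temperatures in 13 genes that were higher at 6°C and 9 that were lower, beside 18.6% and 17.9% of all probe sets. In 6 of these 9 genes the BAT arrays were all lower and the sWAT arrays all higher at 6°C, beside 1.03% of all probe sets. In sWAT 57 of the 71 genes were higher without overlap, beside 11.1% of all probe sets. Ndufs4, a subunit of the NADH-oxidizing arm, was at 13.01, 12.88 and 12.96 at 28°C and at 13.28, 13.26 and 13.27 at 6°C. The temperatures did not overlap, but the difference of 0.32 ± 0.12 did not pass (adjusted p = 0.106). Uqcrq differed by 0.27 ± 0.13 (adjusted p = 0.186). The medians of the 5 complexes lay between -0.01 and 0.05. In complex II the lowest p was that of Sdhd (-0.07 ± 0.12) and in complex IV that of Cox7b2 (0.23 ± 0.28). 

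This holds for the brightest probe set of each gene. Of the 78 further probe sets of the members, 7 passed between 6 and 28°C in BAT, beside 5.28% of all probe sets. Of these 6 were higher and 1 was lower, in the 5 genes Uqcr10, Ndufs4, Ndufa10, Ndufa3 and Ndufab1. They were named after their values were seen. A second probe set of Uqcr10, a small subunit of complex III, was at 11.34, 11.16 and 11.17 at 28°C and at 12.64, 12.65 and 12.71 at 6°C in BAT, a 2.72-fold rise (1.44 ± 0.20, adjusted p = 0.000447), and the last one rose by 1.09 ± 0.19 (adjusted p = 0.00162). The brightest probe set of the same gene differed by -0.03 ± 0.11. A dimmer probe set of Ndufs4 was at 8.82, 8.55 and 8.61 at 28°C and at 9.91, 10.01 and 10.17 at 6°C, a 2.58-fold rise (1.37 ± 0.15, adjusted p = 7.86e-05). The dimmer ones of Ndufa10 (1.31 ± 0.22, adjusted p = 0.00177) and Ndufa3 (1.09 ± 0.16, adjusted p = 0.000623) rose as well. Those of Ndufab1 disagreed with each other, with 1 higher by 1.66 ± 0.26 and 1 lower by -0.81 ± 0.17. Probe sets of a gene can read different transcripts, and which ones these read was not tested. The brightest probe set of Uqcr10 was at 13.58 to 13.65 on the BAT arrays, beside 14.59 for the highest value of all probe sets. Whether the upper end of the scale compressed the differences of the brightest probe sets was not tested either.

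In mWAT no gene passed and none had an unadjusted p under 0.05 in limma, beside 0.00222% and 4.04% of all probe sets. The medians lay between 0.00 and 0.11. The genes with the lowest p of their complexes were Ndufs1 (0.27 ± 0.14), Sdhb (0.14 ± 0.12), Cyc1 (0.21 ± 0.16), Cox7b2 (-0.18 ± 0.28) and Atp5pb (-0.06 ± 0.09). Ucp1 itself was at 6.27 to 6.76 on the mWAT arrays at 28°C and at 8.76 to 10.15 at 6°C.

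The cold responses of the depots were compared directly by the difference of the 6 minus 28°C contrasts. No gene passed in any of the 3 comparisons, where 0.362% of all probe sets passed for BAT vs sWAT, 0% for sWAT vs mWAT and 0.582% for BAT vs mWAT. An unadjusted p under 0.05 in limma was reached by 29 genes for BAT vs sWAT, all with the larger response in sWAT (14.3% of all probe sets), by 30 for sWAT vs mWAT, all larger in sWAT (5.08%), and by 1, Atp5g1, for BAT vs mWAT (15.7%). These comparisons share arrays, and the first 2 share the sWAT arrays. For sWAT vs mWAT the largest difference was that of Uqcrc1 (0.73 ± 0.18, adjusted p = 0.499) and for BAT vs sWAT that of Cyc1 (-0.79), with the lowest p for Ndufa10 (-0.74 ± 0.17, adjusted p = 0.0458). In complex II, Sdhd differed by -0.69 ± 0.17 for BAT vs sWAT (adjusted p = 0.0594) and by 0.57 ± 0.17 for sWAT vs mWAT (adjusted p = 0.75).

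The sWAT of cold mice remained below the BAT of mice kept at 28°C. In this comparison 28 genes were lower in sWAT, beside 7.99% of all probe sets, with 19 in complex I, 3 in complex II, 2 in complex III, 1 in complex IV and 3 in complex V. Atp5g1 (0.73 ± 0.25), Atp5g3 (0.43 ± 0.11) and Atp5j (0.04 ± 0.12) had higher means in sWAT and did not pass, the first 2 with no overlap of the arrays. The medians were -0.44, -0.56, -0.28, -0.38 and -0.28. Complex III, with a median above that of complex I between BAT and sWAT at 28°C, here had the median of complex V. Uqcrc1 was lower by -0.68 ± 0.13 (adjusted p = 0.00135) and Cyc1 by -0.75 ± 0.16 (adjusted p = 0.00294). In complex I, Ndufb4 (-1.46 ± 0.18, adjusted p = 5.17e-05), Ndufs5 (-0.87 ± 0.17, adjusted p = 0.0018), Ndufa6 (-0.78 ± 0.11, adjusted p = 0.000201) and Ndufb2 (-0.77 ± 0.17, adjusted p = 0.0044) were farthest below. In complex II, Sdhb, Sdhd and Sdhc were lower by -0.63 ± 0.12, -0.61 ± 0.12 and -0.51 ± 0.12. Cox5a was lower by -0.47 ± 0.10, and Atp5l, Atp5e and Atp5md by -0.47 ± 0.12, -0.46 ± 0.10 and -0.46 ± 0.11. Without BAT array 1, 2 or 3 at 28°C the number was 9, 14 or 11, without sWAT array 1, 2 or 3 at 6°C it was 18, 10 or 10, and without both BAT arrays 2 and 3 at 28°C, which leaves 1 BAT array that is taken to vary like the other groups, it was 3. With the lymphocyte genes as a covariate 3 genes passed and with the mammary genes none, at medians for complexes I and II of -0.26 and -0.28 and of -0.53 and -0.73.

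With both depots at 6°C, 34 genes were higher in BAT and 1 was lower, beside 13.4% and 10.3% of all probe sets. They were 21 of 36 in complex I, 3 of 4 in complex II, 3 of 9 in complex III, 1 of 5 in complex IV and 6 of 17 in complex V, and the medians were 0.47, 0.54, 0.39, 0.37 and 0.29. Ndufs4 was higher by 0.84 ± 0.12 (adjusted p = 0.000104), Ndufs5 by 0.93 ± 0.17 (adjusted p = 0.000723), Ndufb2 by 0.82 ± 0.17 (adjusted p = 0.00188) and Ndufb4 by 1.35 ± 0.18 (adjusted p = 5.74e-05). Uqcrc1 was higher by 0.77 ± 0.13, Cyc1 by 0.70 ± 0.16 and Uqcrq by 0.54 ± 0.13. Sdhb was higher by 0.63 ± 0.12, Sdhd by 0.54 ± 0.12 and Sdhc by 0.53 ± 0.12. The values for Cox5a, Atp5e, Atp5md and Atp5l were 0.54 ± 0.10, 0.49 ± 0.10, 0.47 ± 0.11 and 0.43 ± 0.12. Without sWAT array 2 at 6°C 18 genes passed, and without BAT array 2, 1 or 3 at 6°C 19, 21 or 22. With the lymphocyte genes as a covariate, at 9.74 to 10.89 in sWAT and 5.93 to 6.38 in BAT, 7 genes passed, with medians of 0.23, 0.26, 0.19, 0.15 and 0.12. With the mammary genes none passed, with medians of 0.53, 0.73, 0.52, 0.32 and 0.26 and a median SE in complex I of 0.29.

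Subunit c of complex V is encoded by 3 genes, Atp5g1, Atp5g2 and Atp5g3, whose mature proteins are identical and whose import sequences differ. Atp5g1 was at 10.56, 11.64 and 11.39 in BAT, 12.19, 12.70 and 12.13 in sWAT and 12.65, 12.34 and 12.75 in mWAT at 28°C. At 6°C it was at 10.20, 10.61 and 10.07 in BAT, 11.81, 12.12 and 11.85 in sWAT and 12.56, 12.61 and 12.85 in mWAT. All BAT arrays were low, with no overlap with the white depots at either temperature. Atp5g1 was 2.20-fold lower in BAT than in sWAT at 28°C (-1.14 ± 0.25, adjusted p = 0.00232), 2.60-fold lower than in mWAT (-1.38 ± 0.25, adjusted p = 0.000424) and 3.10-fold lower than in sWAT at 6°C (-1.63 ± 0.25, adjusted p = 0.000157). The call against sWAT at 28°C ended without BAT array 1 at 28°C (-0.82) or without sWAT array 2 at 28°C. With the mammary genes as a covariate the difference was 0.0594 (adjusted p = 0.972 in limma). The median SE of complex V was 0.27 in that fit and 0.099 without the covariate, and the depots and this content cannot be told apart in it.

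In BAT at 28°C and in sWAT at both temperatures the arrays ranked by Atp5g1 as they did by the mean of the skeletal muscle genes. In BAT at 6°C and in mWAT at both temperatures they did not. The muscle genes averaged 8.51, 12.65 and 12.16 on the BAT arrays at 28°C and 7.16, 9.97 and 8.01 at 6°C. With that mean as a covariate Atp5g1 was lower in BAT by -1.33 against sWAT and by -1.96 against mWAT. Without BAT arrays 2 and 3 at 28°C, which were left out after their values were seen, 1 array remained in the group and was taken to vary like the others. Atp5g1 then differed by -1.78 and -2.02. Between 6 and 28°C in BAT it differed by -0.90 ± 0.25 (adjusted p = 0.0272), by -0.54 with the covariate (adjusted p = 0.131) and by -0.26 against the 1 remaining array at 28°C. The part of muscle RNA in these differences was not tested.

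Atp5g2 differed between BAT and sWAT or mWAT by 0.41 ± 0.12 and 0.30 ± 0.12, and Atp5g3 by -0.35 ± 0.11 and -0.40 ± 0.11. Neither passed (adjusted p = 0.0125 and 0.0504 for Atp5g2, 0.0275 and 0.0125 for Atp5g3). Atp5g3 was at 13.32, 13.59 and 13.56 in BAT, 13.79, 13.80 and 13.93 in sWAT and 13.80, 13.84 and 14.02 in mWAT at 28°C, so the BAT arrays were all below the white ones. Atp5j, coupling factor 6 of the stalk, was the remaining gene of complex V without a higher mean in BAT (-0.03 ± 0.12 against sWAT and -0.24 ± 0.12 against mWAT). The second probe set of Atp5g1, with a mean of 5.99, differed by -0.78 ± 0.32 between BAT and sWAT, which did not pass, and was lower in BAT than in mWAT (-1.64 ± 0.32, adjusted p = 0.000867).

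**Figure D4:**
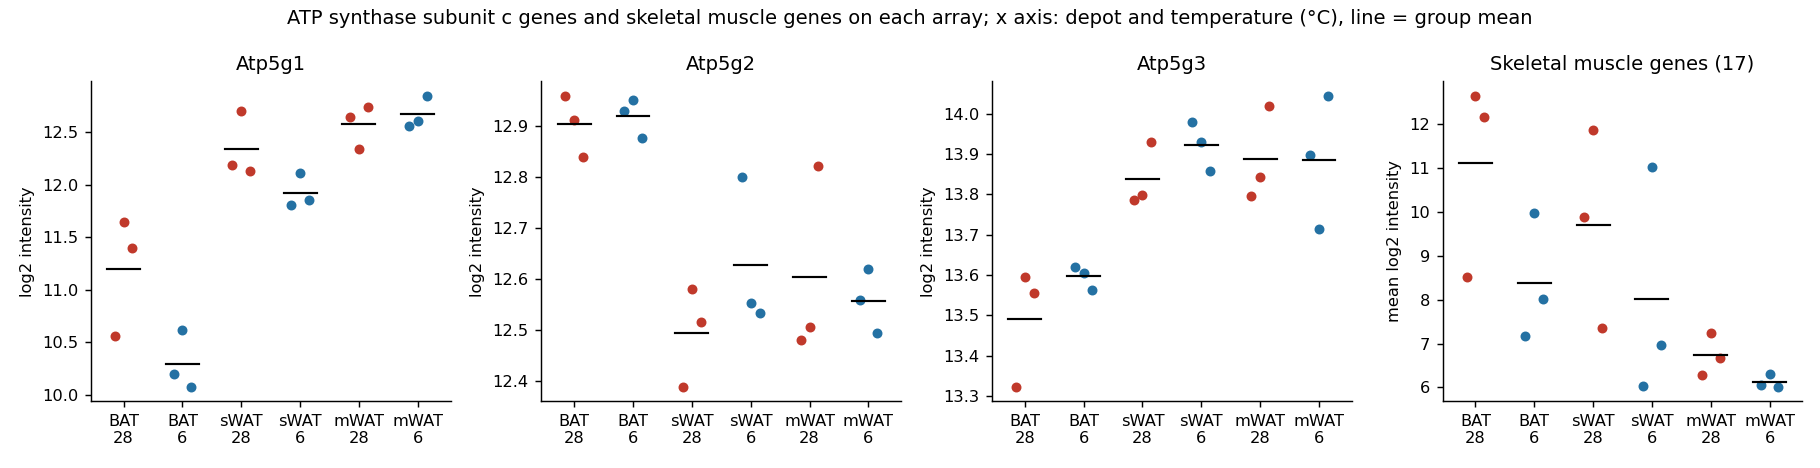
Log2 intensity of the 3 subunit c genes and the mean of 17 skeletal muscle genes on each array (points) with group means (lines), by depot and temperature. Atp5g1 is lowest on the BAT arrays, where array 1 at 28°C (10.56) is low in muscle genes (8.51) and arrays 2 and 3 are high in both.

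The probe sets of most members were bright. Of the 71, 66 had a mean over 11 and 63 a mean over 11.96, the 95th percentile of all values, while the highest value of the table was 14.59, on a probe set of a member. Whether the upper end of the scale compressed their differences was not tested. Across the 66 genes the level and the difference between BAT and sWAT at 28°C had a Pearson correlation of -0.38, and the level and the cold difference in sWAT one of -0.32. This is a description across genes that share arrays. Among genes with a mean from 13 to 14, the median difference between BAT and sWAT was 0.70 over 19 genes of complex I, 0.63 over 5 of complex III and 0.50 over 12 of complex V. Among those with a mean from 11 to 13 it was 1.13 over 14 genes of complex I, 1.26 over 4 of complex III and 0.41 over 5 of complex V. Complex V had the smallest of these medians in both ranges, but the complexes were not matched in level within a range. Its 5 genes in the dimmer range include Atp5g1 and Atp5j, which did not have higher means in BAT. For the cold difference in sWAT the medians were 0.30, 0.38 and 0.20 in the brighter range and 0.45, 0.64 and 0.13 in the dimmer one.

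**Figure D5:**
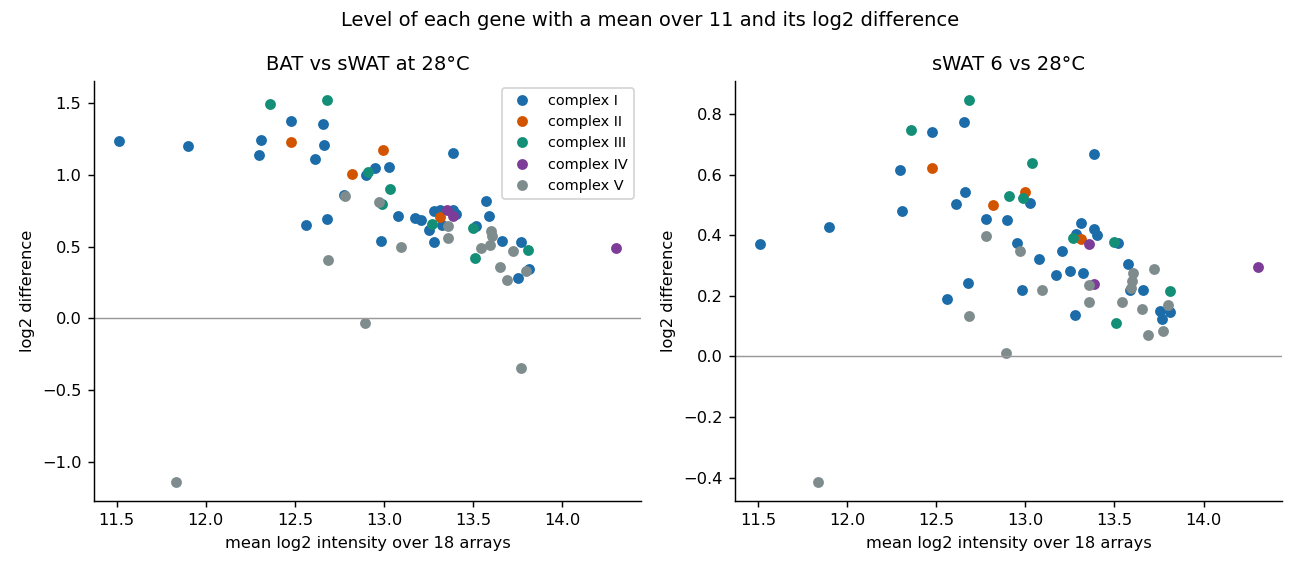
Mean log2 intensity over 18 arrays (x) and log2 difference (y) of the 66 genes with a mean over 11, coloured by complex, for BAT vs sWAT at 28°C and for sWAT at 6 vs 28°C. Many genes of complex V (grey) have high levels, where they overlap with genes of complexes I and III. Atp5g1 lies at -1.14 and -0.41.

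The members have 78 further probe sets that name 1 gene, of which 65 had a mean above every array median. All 65 had the sign of the gene's main probe set for BAT vs sWAT and BAT vs mWAT at 28°C, as did 64 for the cold difference in sWAT. In sWAT 5 of the 78 further probe sets rose at 6°C, in 3 genes, beside 0.464% of all probe sets. They were both of Ndufv1 (0.73 ± 0.11 and 0.71 ± 0.12), both of Uqcr10 (1.39 ± 0.20 and 1.31 ± 0.19) and 1 of Ndufs8 (0.72 ± 0.13), while the brightest of Uqcr10 differed by 0.39 ± 0.11 and did not pass. The second of Ndufa10 had a difference of 1.01 ± 0.22 that did not pass. A dimmer probe set of Cox7c was higher in BAT than in sWAT (1.28 ± 0.32, adjusted p = 0.0064).

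Genes that build or feed the complexes were taken from lists of known function. Of 45 assembly factors with a probe set, 39 were higher in BAT than in sWAT at 28°C, beside 13.2% of all probe sets, with a median of 1.03, among them Ecsit (2.001 ± 0.16) of complex I and Uqcc1 (1.94 ± 0.18) of complex III assembly. In sWAT 1 of the 45 rose in the cold, Foxred1 (0.92 ± 0.15, adjusted p = 0.00568), which acts in complex I assembly, beside 0.464% of all probe sets, and the median was 0.35. All 6 genes of other electron donors and carriers were higher in BAT, with a median of 1.08. In sWAT, Etfdh, which passes electrons from fatty acid oxidation to ubiquinone, was at 11.44, 11.60 and 11.69 at 28°C and rose at 6°C by 1.22 ± 0.13 (adjusted p = 0.000257), while the cytochrome c gene Cycs (0.82 ± 0.15, adjusted p = 0.0142) and the other 4 did not pass. Of 16 genes of mitochondrial mass 14 were higher in BAT (median 0.69) and none passed in sWAT at 6 vs 28°C (median 0.18), where 7 had an unadjusted p under 0.05 in limma, beside 12.3% of all probe sets.

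Promoters were read from RefSeq (GRCm38.p6) for 59 of the 71 genes, over 250 bases before and 50 after the start. The letters of 4 motifs were searched on both strands: TCAAGGTCA for ERR, GCGCATGCG for NRF1, CCGGAAGT for GABP and AAGATGGCG for YY1. They were found in 2, 6, 4 and 6 of the 59 genes (3.39%, 10.2%, 6.78% and 10.2%), beside 0.466%, 1.95%, 4.31% and 1.64% of 27025 genes, and in 17 genes at least 1 of them was found. A match by 1 of these letter strings can overlap its own match on the other strand, as in Uqcrc1. Below are the 250 bases before the start of the gene with the lowest p for the cold difference in sWAT in each complex (for complex IV Cox6c, then Cox5b) and of Atp5g1, which went the other way. For Ndufa10 and Atp5g1 the start used lies inside the annotated span of the gene, so part of the bases shown lies within that span. None of these stretches holds the letters of a motif, so they have no capitals.
Ndufa10 (chr1:92473759-92474008, minus strand): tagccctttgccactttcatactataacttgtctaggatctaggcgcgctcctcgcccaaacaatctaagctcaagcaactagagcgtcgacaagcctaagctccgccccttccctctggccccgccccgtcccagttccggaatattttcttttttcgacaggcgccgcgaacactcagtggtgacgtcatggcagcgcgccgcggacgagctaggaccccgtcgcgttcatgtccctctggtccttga
Sdhd (chr9:50603850-50604099, minus strand): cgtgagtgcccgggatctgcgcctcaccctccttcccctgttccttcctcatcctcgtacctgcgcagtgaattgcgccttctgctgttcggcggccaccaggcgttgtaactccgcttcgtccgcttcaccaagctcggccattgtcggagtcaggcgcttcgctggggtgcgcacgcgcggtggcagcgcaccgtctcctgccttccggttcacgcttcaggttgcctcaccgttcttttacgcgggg
Uqcrc1 (chr9:108936398-108936647, plus strand): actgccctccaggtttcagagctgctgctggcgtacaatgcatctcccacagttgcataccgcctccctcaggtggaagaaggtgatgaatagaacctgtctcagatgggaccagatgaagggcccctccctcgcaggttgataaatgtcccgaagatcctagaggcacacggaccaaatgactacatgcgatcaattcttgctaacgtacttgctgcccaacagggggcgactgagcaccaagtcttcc
Cox5b (chr1:36691237-36691486, plus strand): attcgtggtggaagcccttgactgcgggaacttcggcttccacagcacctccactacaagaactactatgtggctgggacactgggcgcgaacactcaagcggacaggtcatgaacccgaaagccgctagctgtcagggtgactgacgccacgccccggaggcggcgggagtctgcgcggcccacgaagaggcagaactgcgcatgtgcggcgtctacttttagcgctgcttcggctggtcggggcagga
Atp5md (chr19:47090648-47090897, minus strand): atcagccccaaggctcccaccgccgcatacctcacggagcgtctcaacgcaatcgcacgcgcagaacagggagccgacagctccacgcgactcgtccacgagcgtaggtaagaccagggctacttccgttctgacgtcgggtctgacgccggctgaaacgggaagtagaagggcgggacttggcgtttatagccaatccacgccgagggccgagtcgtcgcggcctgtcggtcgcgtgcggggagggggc
Atp5g1 (chr11:96075632-96075881, minus strand): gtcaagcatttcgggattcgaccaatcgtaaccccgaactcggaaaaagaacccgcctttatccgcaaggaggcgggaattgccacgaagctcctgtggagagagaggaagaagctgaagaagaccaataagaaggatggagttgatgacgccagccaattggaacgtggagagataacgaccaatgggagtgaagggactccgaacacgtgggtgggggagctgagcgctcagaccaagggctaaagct
In Uqcrc1 and Sdhd a motif lies after the start. The 30 bases at positions 21 to 50 after it are shown for both, with the NRF1 letters, which match on both strands, and the reverse of the ERR letters in capitals.
Sdhd (chr9:50603800-50603829, minus strand): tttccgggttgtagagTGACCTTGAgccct
Uqcrc1 (chr9:108936668-108936697, plus strand): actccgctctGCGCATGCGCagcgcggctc
A match says nothing of whether a factor binds there, and these genes rose in sWAT by 0.85 and had a difference of 0.62.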

How the data were processed

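RNA of whole fat depots was amplified, biotin-labelled and hybridised to Affymetrix mouse arrays. The deposited values are linear intensities that the authors background-adjusted, summarised and normalized, with the algorithm not given in the sources used here. They were taken to log2. Of 45101 probe sets, 64 control ones were left out. All 45037 others were fitted with limma 3.58.1 in R 4.3.3, with 1 mean for each of the 6 groups, 12 residual and 2.64 prior degrees of freedom, and Benjamini-Hochberg adjustment over all of them for each comparison. The threshold of 0.01 is that of the study's methods. No columns were left unmapped (0). The fit was tested on simulated data. Tables and plots used pandas 2.3.3 and matplotlib 3.10.9.

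The members and lists were chosen with earlier results of these data known. Genes were named by the lowest p-values or largest differences in each complex, with others only where stated. Alternatives changed the threshold, scaling, filter, variance model, probe set choice, arrays in the fit and covariates for other cell types. The number of arrays limits the precision.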

Additional observations from a re-analysis of the deposited data

Results flagged for a closer look

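In 6 genes every BAT array at 6°C lay below every BAT array at 28°C, while in sWAT the arrays at 6°C were all above those at 28°C. This held for 1.03% of all probe sets. In BAT 9 members lay lower without overlap at 6°C and 13 higher, beside 17.9% and 18.6% of all probe sets. In sWAT 57 of the 71 members lay higher without overlap, beside 11.1%. None of the 6 differences in BAT exceeded 0.11 in size, the median SE over the 71 genes. The log2 difference in BAT and in sWAT was -0.059 and 0.124 for Ndufa13, -0.108 and 0.305 for Ndufb10, -0.067 and 0.348 for Ndufb8, and -0.11 and 0.218 for Ndufs7, all of complex I. It was -0.0737 and 0.62 for Sdhd of complex II and -0.0395 and 0.157 for Atp5c1 of complex V. The difference of the responses did not pass in limma for any of them, with adjusted p = 0.619, 0.217, 0.186, 0.287, 0.0594 and 0.598 in that order.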

How the results depend on the processing

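Counts are genes past the threshold of the 71, and medians are log2 differences. With each array left out, counts ran from 0 to 1 for BAT at 6 vs 28°C, 0 to 4 for sWAT at 6 vs 28°C, 18 to 40 for BAT vs sWAT at 6°C and 9 to 32 for sWAT at 6°C vs BAT at 28°C, and the medians of complex IV from 0.59 to 0.74 for BAT vs sWAT at 28°C, 0.66 to 0.80 for BAT vs mWAT and -0.0651 to 0.0434 for sWAT vs mWAT. The 1 gene in BAT was Atp5g1, without array 1 at 28°C. In the same order of 4 counts, an adjusted p under 0.05 gave 1, 10, 55 and 49, and 1 for the difference of the BAT and sWAT responses. Variance trend and robust prior gave 14 in sWAT, 57, 51 and 2 for that difference. The compared groups alone gave 0 in sWAT, 37 for BAT vs mWAT, 19 and 11. Without dim probe sets sWAT had 7. The mean of a gene's probe sets gave 1 in BAT (Uqcr10), 45 for sWAT at 6°C vs BAT at 28°C, and medians of 1.004 and 0.97 for complexes I and III against sWAT and 0.996 for complex I against mWAT. Without _x_at and _s_at probe sets the median of complex III in BAT was -0.024. Median centring moved the median of all probe sets for BAT vs sWAT at 28°C from 0.11 to 0.25 and the calls that were higher from 57.8% to 71.3%, and gave medians of 0.90, 1.24, 0.94, 0.85 and 0.64 for complexes I to V, 0.86 and 0.59 for IV and V against mWAT, 0.0701, 0.0539, 0.0987 and 0.0546 for I, II, III and V in BAT, and counts of 62 and 48 for sWAT at 6°C. The lymphocyte covariate gave 14 in sWAT, 7 and 3 for sWAT at 6°C against BAT, 1 for sWAT vs mWAT, 2 for the response difference, medians of 0.53, 0.80, 0.50, 0.52 and 0.33 against sWAT and of 0.60, 0.91, 0.71, 0.52 and 0.31 against mWAT. The mammary covariate gave 0 in sWAT, for BAT vs sWAT at both temperatures and for sWAT at 6°C vs BAT at 28°C, medians of 1.32, 0.94, 0.57 and 0.44 for II to V, and turned Atp5g1 from -1.14 to 0.0594 for BAT vs sWAT at 28°C. In that fit the depots and the mammary content cannot be told apart. The muscle covariate gave 0 in sWAT and medians of -0.00922 for complex I in BAT and 0.79 for IV against mWAT. Of alternatives chosen after seeing the data, leaving out BAT arrays 2 and 3 at 28°C, which leaves 1 array there, gave 0 in sWAT, 3 for sWAT at 6°C vs BAT at 28°C and medians of -0.00163 and -0.0403 for I and V in BAT, and leaving out both mWAT arrays 3 gave 9 in sWAT and medians of 0.80 and 0.0434 for IV in BAT and sWAT vs mWAT. The causes were not tested. No paired analysis was possible because the labels do not say that a replicate number marks a shared mouse.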

Other observations

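Of the 45 assembly factors 2 passed in BAT at 6 vs 28°C, both higher, a share near the 5.28% of all probe sets. They act in complex IV assembly and were looked at after their values were seen. Sco1, a copper chaperone of complex IV, was at 9.38, 9.44 and 9.43 at 28°C and at 10.78, 10.68 and 10.71 at 6°C (1.31 ± 0.17, adjusted p = 0.000211 in limma). Coa7 was at 9.09, 8.89 and 8.95 and at 10.18, 9.86 and 10.17 (1.10 ± 0.18, adjusted p = 0.00136). The temperatures did not overlap in either gene. Coa4 (0.72), Sco2 (0.58), Cox19 (0.43) and Coa3 (0.39), which are among those with higher means at 6°C, did not pass. The rest of the list is not shown here. Of the 45 assembly factors 12 had an unadjusted p under 0.05 in limma, beside 26.3% of all probe sets. The median over the 45 was 0.12. By these counts the list did not stand out from all probe sets, so the genes named here show no response of complex IV assembly as a whole.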
